A study of Mus musculus with 19 samples.

Results

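The 6 genes described here mark the transmitter that a neuron releases, and they were read from RNA sequencing of mouse cerebellum. They were taken by symbol from both deposited tables, which hold 22193 genes, and all 6 were found in both. Slc17a6 and Slc17a7 encode the vesicular glutamate transporters VGLUT2 and VGLUT1, Gad1 and Gad2 encode the enzymes that make GABA from glutamate, Slc32a1 encodes the vesicular transporter of GABA and glycine, and Slc6a5 encodes the glycine transporter GlyT2 of glycinergic nerve endings. The 19 libraries came from C57BL/6 mice at postnatal day 60, with 8 libraries of Olig1-Gnas, 8 of hGFAP-Gnas and 3 of Ctrl. Olig1-Gnas mice carried a conditional knockout of Gsα driven by Olig1Cre, hGFAP-Gnas mice carried one driven by hGFAPCre, and Ctrl mice were wild type. Olig1 is best known from the oligodendrocyte lineage, and the human GFAP promoter from astrocytes and neural progenitors, and the cells in which Cre had acted are not given in the sources used here. By its title, the series places Gsα among the tumor suppressors of SHH-driven medulloblastoma, and the share of tumor in each piece of cerebellum is likewise not given. In such bulk tissue, fewer cells of a type and less RNA per cell cannot be told apart.

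Neurons load glutamate, GABA or glycine into synaptic vesicles through dedicated transporters, so the transporter a neuron makes is a common label of its transmitter. In the mature cerebellum, granule neurons release glutamate and use mainly VGLUT1, Purkinje cells and molecular layer interneurons release GABA, and many Golgi cells release GABA together with glycine. VGLUT2 is known from climbing fibers, whose cell bodies lie in the brainstem, from neurons of the deep cerebellar nuclei and from young granule neurons, which replace it with VGLUT1 as they mature. Gsα stimulates adenylyl cyclase, and the cAMP it makes acts through protein kinase A, which restrains SHH signaling in granule neuron progenitors.

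Values are FPKM, fragments scaled to transcript length and to the mapped fragments of the library, so they are levels per length and can be compared between genes. The depth in reads is unknown, and the relative depth read from low values was 0.269 to 1.06 of that of Ctrl 2, with a deeper class (hGFAP-Gnas 1 to 4, libraries 5 to 8 of Olig1-Gnas and Ctrl 1 and 2) and a shallower class of the other libraries. Gnas, which encodes Gsα, had 24.05 to 121.5 FPKM in 5 Olig1-Gnas libraries and was listed at 0 in the other 3, against 651 and 798 FPKM in Ctrl 1 and Ctrl 2 and 0 in Ctrl 3 of the same table. In the table of hGFAP-Gnas it had 40.9 FPKM in hGFAP-Gnas 5 and was listed at 0 in the other 7, against 798 FPKM in Ctrl 2 and 0 in Ctrl 1 and Ctrl 3, so it could not check the labels of that table. Defining genes of cerebellar neurons were present in Ctrl, where the granule neuron gene Gabra6 averaged 354 ± 123 FPKM and the Purkinje gene Calb1 averaged 344 ± 113 FPKM (SD, n = 3). A list of 11 brainstem and spinal cord genes (Hox genes among them) summed to 4.47 FPKM in hGFAP-Gnas 2, 19.5 FPKM in hGFAP-Gnas 4 and 6.09 FPKM in Ctrl 3, against 0.165 to 1.90 FPKM in the other 16 libraries. Of these 11 genes, 1, 0 and 0 were listed at 0 in those 3 libraries and 2 to 9 in the others. The choroid plexus gene Ttr, chosen after its values were seen, was highest in Olig1-Gnas 8 (2317 FPKM), hGFAP-Gnas 8 (863 FPKM) and Ctrl 3 (1195 FPKM).

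Slc17a7, Slc32a1, Gad1, Gad2 and Slc6a5 fell in both knockouts, with means at 3.48 to 7.56% of Ctrl for Olig1-Gnas and at 12.1 to 26.0% for hGFAP-Gnas, and Slc17a6 rose in hGFAP-Gnas. On log2(FPKM + 1), where a fold understates the change of a low gene, limma called 5 of the 6 genes lower in Olig1-Gnas than in Ctrl at an adjusted p under 0.05, when 23.6% of all 14183 tested genes were called lower and 36.2% higher. In hGFAP-Gnas against Ctrl it called the same 5 lower, when 12.8% of 14305 tested genes were called lower, and Slc17a6 higher, when 26.1% were called higher. Between the knockouts 0 of the 6 were called, when 0.41% of 14386 tested genes were called in either direction, and 4 of the 6 (Slc17a6, Slc17a7, Slc32a1 and Gad1) had an unadjusted p under 0.05, as did 3410 of the 14386 tested genes. A gene had to reach 1 FPKM in 3 libraries of a comparison to be tested, which all 6 did. Slc6a5 reached it in 1 Olig1-Gnas library, so it entered that comparison through the 3 Ctrl libraries, had to be lower there, and its call there is not read as support. Slc17a6 reached it in 1 Ctrl library and in all 8 libraries of each knockout. It entered both comparisons with Ctrl through the knockouts, so its calls there are likewise not read as support under any setting.

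**Figure D1:**
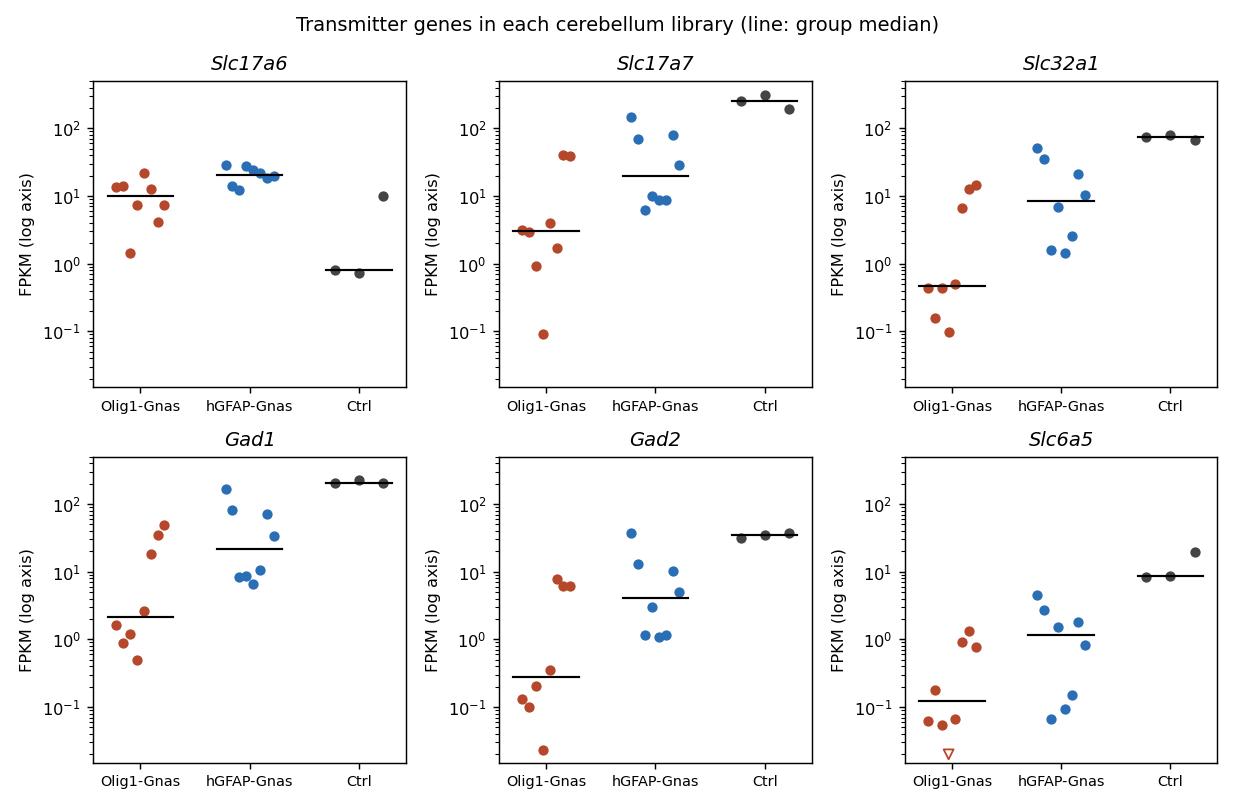
Each point is 1 library, its height the FPKM of the named gene on a log axis, with Olig1-Gnas (n = 8), hGFAP-Gnas (n = 8) and Ctrl (n = 3) from left to right and a line at the group median; the open triangle marks Slc6a5 in Olig1-Gnas 4, which is listed at 0. The 3 Ctrl points of Slc17a7, Slc32a1, Gad1 and Slc6a5 lie above every knockout point, Gad2 in hGFAP-Gnas 1 (37.3 FPKM) reaches the Ctrl level, and Slc17a6 in Ctrl 3 (10.1 FPKM) lies inside the range of Olig1-Gnas.

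In Ctrl the order of the mean levels was Slc17a7 (250 FPKM), Gad1 (212 FPKM), Slc32a1 (74.4 FPKM), Gad2 (34.8 FPKM), Slc6a5 (12.1 FPKM) and Slc17a6 (3.86 FPKM). Neighbours in this order overlapped between libraries for Slc17a7 with Gad1 and for Slc6a5 with Slc17a6, and did not overlap for the other neighbours. In Olig1-Gnas the order was Gad1 (13.6 FPKM), Slc17a7 (11.5 FPKM), Slc17a6 (10.3 FPKM), Slc32a1 (4.43 FPKM), Gad2 (2.63 FPKM) and Slc6a5 (0.421 FPKM). In hGFAP-Gnas the same order held, with means of 48.6 FPKM for Gad1, 45.0 FPKM for Slc17a7, 20.8 FPKM for Slc17a6, 16.4 FPKM for Slc32a1, 9.04 FPKM for Gad2 and 1.46 FPKM for Slc6a5. The ranges of all neighbours overlapped in both knockouts, and the means there were carried by a few libraries. By medians, Slc17a6 (10.01 FPKM) stood above Slc17a7 (3.09 FPKM) and Gad1 (2.14 FPKM) in Olig1-Gnas, and the 3 were close in hGFAP-Gnas (20.7, 19.4 and 21.96 FPKM). Slc17a7 exceeded Slc17a6 in 2 of the 8 libraries of Olig1-Gnas and in 4 of the 8 of hGFAP-Gnas. Slc17a6 was the highest of the 6 genes in Olig1-Gnas 1 to 5 and hGFAP-Gnas 3 to 6, and in Ctrl its mean was the lowest.

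Slc17a7, the glutamate transporter of mature granule neurons, lies on chromosome 7 at chr7:52419290-52431509 in mm9, as the tables list it. Its level in Olig1-Gnas ranged from 0.0928 FPKM (Olig1-Gnas 4) through a median of 3.09 FPKM to 39.8 FPKM (Olig1-Gnas 7), and Olig1-Gnas 8 had 39.0 FPKM. In hGFAP-Gnas it ranged from 6.14 FPKM (hGFAP-Gnas 3) through a median of 19.4 FPKM to 147 FPKM (hGFAP-Gnas 1). Ctrl had 249.4, 308 and 192 FPKM, so the 3 Ctrl libraries stood above every knockout library. Within Olig1-Gnas, libraries 7 and 8 stood far above the next one (3.94 FPKM), and within hGFAP-Gnas, libraries 1, 2 and 7 were the highest. The log2 fold was -5.50 ± 1.08 (SE) in Olig1-Gnas against Ctrl (limma, adjusted p = 0.00131) and -3.26 ± 0.91 in hGFAP-Gnas against Ctrl (adjusted p = 0.0199).

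The Olig1-Gnas call of Slc17a7 held among the deeper libraries (log2 fold -4.51, limma adjusted p = 0.0249). The shallower class has Ctrl 3 as its lone Ctrl library, so its folds are given as values with no test, here -6.31. In hGFAP-Gnas the fold was -3.21 among the deeper libraries (adjusted p = 0.260) and -3.14 among the shallower ones, so the direction held and the call was lost in the deeper class. Without Ctrl 1, Ctrl 2 or Ctrl 3 the hGFAP-Gnas fold of Slc17a7 was -3.25, -3.10 or -3.44 and its adjusted p was 0.0719, 0.0770 or 0.0587.

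Slc17a6, the glutamate transporter of young granule neurons, brainstem and deep nuclei, lies on chromosome 7 at chr7:58877199-58926496 in mm9. In Olig1-Gnas its level was 1.46 FPKM in the lowest library (Olig1-Gnas 3), 10.01 FPKM at the median and 21.9 FPKM in the highest (Olig1-Gnas 5). In hGFAP-Gnas it was 12.3 FPKM in the lowest library (hGFAP-Gnas 3), 20.7 FPKM at the median and 28.3 FPKM in the highest (hGFAP-Gnas 1). Ctrl 1 and Ctrl 2 had 0.799 and 0.718 FPKM and Ctrl 3 had 10.1 FPKM. Every hGFAP-Gnas library was above every Ctrl library, whereas Ctrl 3 was level with the middle of Olig1-Gnas. The log2 fold was 1.53 ± 0.70 (SE) in Olig1-Gnas against Ctrl (limma, adjusted p = 0.0772), which was not called, and 2.70 ± 0.49 in hGFAP-Gnas against Ctrl (adjusted p = 0.00700), which was. That call is not read as support, since the gene passed the filter through the knockout libraries.

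The Olig1-Gnas call of Slc17a6, which is not read as support, turned on single libraries. Without Ctrl 3 the log2 fold was 2.42 and the gene was called (limma, adjusted p = 0.0116), and without Olig1-Gnas 3, the lowest knockout library, it was 1.81 and called as well (adjusted p = 0.0228). Within the deeper class, whose Ctrl libraries are Ctrl 1 and Ctrl 2, the Olig1-Gnas fold was 2.61 (adjusted p = 0.0127). Within the shallower class, where Ctrl 3 is the lone Ctrl library, it was -0.43. For hGFAP-Gnas the fold of Slc17a6 was 3.53 within the deeper class (adjusted p = 0.0918) and 0.98 within the shallower one. Ctrl 3 was also the Ctrl library with Hox genes, and the part of the brainstem genes in its Slc17a6 level was not tested.

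**Figure D2:**
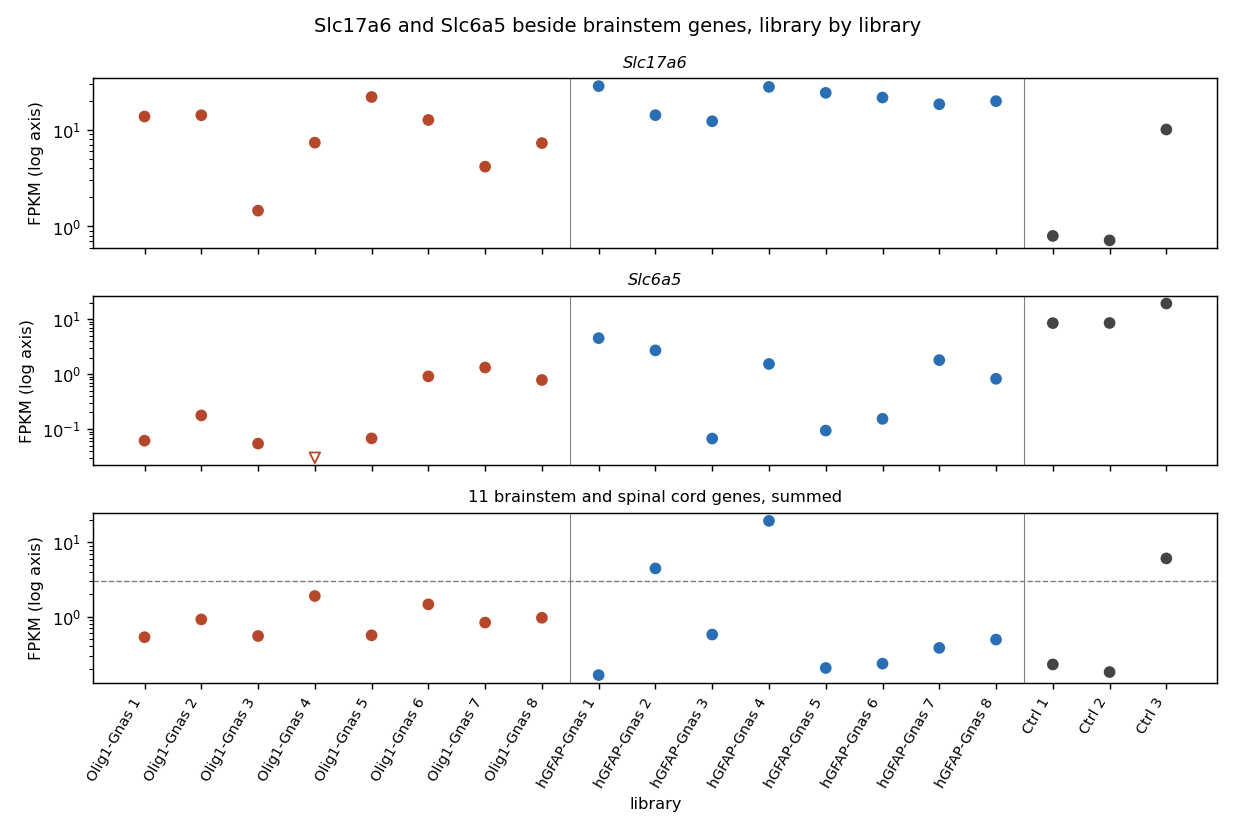
Points are the 19 libraries in the order Olig1-Gnas, hGFAP-Gnas and Ctrl, with FPKM on a log axis for Slc17a6 (top), Slc6a5 (middle, the open triangle being listed at 0) and the sum of 11 brainstem and spinal cord genes (bottom, dashed line at 3 FPKM). Ctrl 3 is the highest Ctrl library in each of the 3 rows, hGFAP-Gnas 1 has the highest Slc17a6 (28.3 FPKM) with a brainstem sum of 0.165 FPKM, and hGFAP-Gnas 4 has nearly the same Slc17a6 (27.8 FPKM) with a sum of 19.5 FPKM.

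Without Ctrl 3, hGFAP-Gnas 2 and hGFAP-Gnas 4, which were picked for this after their values were seen, the log2 fold of Slc17a6 in hGFAP-Gnas against Ctrl was 3.59 (limma, adjusted p = 0.00910), and it remained the member called there. The folds of the other members without these 3 libraries were -3.48 for Slc17a7, -3.27 for Slc32a1, -3.03 for Gad1, -2.66 for Gad2 and -2.37 for Slc6a5, with adjusted p of 0.0822 to 0.127. In the 6 hGFAP-Gnas libraries with sums of 0.165 to 0.578 FPKM, Slc17a6 had values of 12.3 to 28.3 FPKM, against 0.799 and 0.718 FPKM in Ctrl 1 and Ctrl 2, whose sums were 0.229 and 0.181 FPKM. With Ctrl 1 and Ctrl 2 under 1 FPKM, Slc17a6 passed the filter there through hGFAP-Gnas, and its call is not read as support.

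The balance between the glutamate transporters differed between the knockouts and Ctrl. The share of Slc17a6 in the summed FPKM of both transporters was 9.46 to 98.8% in Olig1-Gnas (median 81.9%), 16.1 to 73.8% in hGFAP-Gnas (median 53.6%) and 0.233, 0.319 and 4.97% in Ctrl. It was above 50% in Olig1-Gnas 1 to 6 and in hGFAP-Gnas 3 to 6, and its lowest values, 9.46 to 18.6%, were in Olig1-Gnas 7 and 8 and hGFAP-Gnas 1, 2 and 7. The log2 ratio of Slc17a6 over Slc17a7, with 0.1 FPKM added to each, averaged 1.22 ± 2.81 in Olig1-Gnas (SD, n = 8) and -6.97 ± 2.37 in Ctrl (SD, n = 3), a difference of 8.20 with no overlap. In hGFAP-Gnas it averaged -0.26 ± 1.78 (SD, n = 8), a difference from Ctrl of 6.71, again with no overlap. A two-sided exact permutation test over libraries gave p = 0.0121 for each, the smallest p that 165 arrangements allow, and 0.0909 after adjustment over 15 ratio tests, so neither passed.

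The separation of this ratio was present in both depth classes. In the deeper class the ratio of Olig1-Gnas was -3.23 to 2.81 and that of hGFAP-Gnas -2.38 to 1.49, against -8.12 and -8.56 in Ctrl. In the shallower class the ratio of Olig1-Gnas was 0.62 to 5.28 and that of hGFAP-Gnas -2.12 to 1.48, against -4.24 in the lone Ctrl library. Between Olig1-Gnas and hGFAP-Gnas the ratio differed by 1.49 (exact permutation p = 0.223, adjusted p = 0.556), and the hGFAP-Gnas range lay inside that of Olig1-Gnas.

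**Figure D3:**
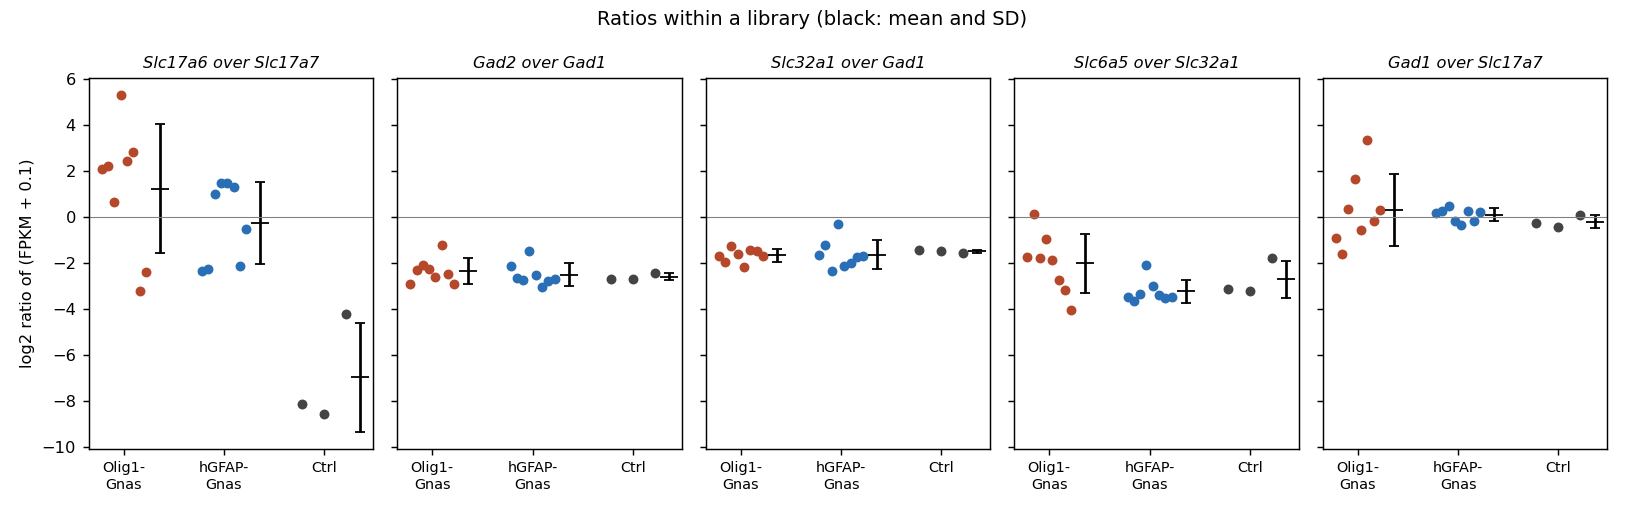
The 5 panels give log2 ratios between members within each library (FPKM + 0.1 over FPKM + 0.1), with 1 point per library, Olig1-Gnas (n = 8), hGFAP-Gnas (n = 8) and Ctrl (n = 3) from left to right, and the black mark giving the mean with SD. In the first panel every knockout point lies above every Ctrl point, and in the other 4 panels the groups overlap, with Olig1-Gnas spread widest in Slc6a5 over Slc32a1 and in Gad1 over Slc17a7.

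The start regions of these genes are shown to set the transporters and enzymes side by side, as windows of 250 bases before to 50 after a RefSeq start site in build GRCm38.p6, which is not the build of the tables. The 6 members had 8 windows, as Slc17a6 and Slc6a5 have 2 start sites each, and all 8 lie on the plus strand. Each window was searched on both strands for the cAMP response element TGACGTCA, its core TGACG, the GLI motif GACCACCCA, the E-box words CAGATG and CAGCTG, and the TATA word TATAAA. Neither the full element nor the GLI motif was found in any of the 8, and among all 32851 mouse windows 1.79% held the first and 0.253% the second. The core TGACG, which the full element contains, was in 3 of the 8 windows (Gad2, Slc6a5 and the second Slc17a6 window), against 20.8% of all windows. The word CAGATG or its reverse complement was in 3 windows and is not marked. Such a match is a run of letters and says nothing about binding. In the windows printed here, capitals mark the core TGACG or its reverse complement and, in Gad1, the reverse complement of TATAAA.

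The glutamate transporter windows are Slc17a7 at chr7:45163671-45163970, which holds none of the marked words and has 63.7% G or C, and the second of the Slc17a6 windows, shown for its core, at chr7:51624387-51624686, which has 43.0% G or C and the core TGACG from base -102. The first Slc17a6 window, at chr7:51621580-51621879, has 53.7% G or C and none of the words searched, and the median over all windows was 52.7%.
Slc17a7: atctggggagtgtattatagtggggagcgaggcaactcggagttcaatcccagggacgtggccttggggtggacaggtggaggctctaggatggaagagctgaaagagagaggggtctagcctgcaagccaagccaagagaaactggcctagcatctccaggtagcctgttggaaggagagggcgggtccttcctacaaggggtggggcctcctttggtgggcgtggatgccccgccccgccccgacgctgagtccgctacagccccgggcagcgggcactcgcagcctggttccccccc
Slc17a6: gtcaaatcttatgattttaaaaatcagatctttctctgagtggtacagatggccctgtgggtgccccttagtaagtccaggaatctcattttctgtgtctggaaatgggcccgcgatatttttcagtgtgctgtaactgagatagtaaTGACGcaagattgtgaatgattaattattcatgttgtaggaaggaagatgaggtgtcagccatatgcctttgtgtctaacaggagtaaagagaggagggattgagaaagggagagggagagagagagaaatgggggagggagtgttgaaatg

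Gad1, whose GABA-synthesizing enzyme is found throughout the neuron, lies on chromosome 2 at chr2:70400220-70440069 in mm9. Its level in Olig1-Gnas ranged from 0.503 FPKM (Olig1-Gnas 4) through a median of 2.14 FPKM to 48.3 FPKM (Olig1-Gnas 8). In hGFAP-Gnas it ranged from 6.67 FPKM (hGFAP-Gnas 5) through a median of 21.96 FPKM to 167 FPKM (hGFAP-Gnas 1). Ctrl had 205, 226 and 204 FPKM, above every knockout library. Olig1-Gnas 6, 7 and 8 (18.4, 35.5 and 48.3 FPKM) stood apart from the other 5 libraries of that group, none of which exceeded 2.65 FPKM. The log2 fold was -5.10 ± 1.16 (SE) in Olig1-Gnas against Ctrl (limma, adjusted p = 0.00328) and -2.98 ± 0.92 in hGFAP-Gnas against Ctrl (adjusted p = 0.0283). In the mouse annotation GENCODE M21 an antisense gene, Gad1os, overlaps 10286 bases of Gad1, and whether the counting used strand is not given in the sources used here.

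Gad2, which encodes the GABA-synthesizing enzyme concentrated at nerve endings, lies on chromosome 2 at chr2:22477846-22549397 in mm9. In Olig1-Gnas it was 0.0234 FPKM in the lowest library (Olig1-Gnas 4), 0.280 FPKM at the median and 7.89 FPKM in the highest (Olig1-Gnas 6). In hGFAP-Gnas it was 1.08 FPKM in the lowest library (hGFAP-Gnas 5), 4.05 FPKM at the median and 37.3 FPKM in the highest (hGFAP-Gnas 1), and Ctrl had 31.7, 34.9 and 37.9 FPKM. The hGFAP-Gnas 1 value lay within the Ctrl range, and the other 15 knockout libraries, none above 13.1 FPKM, lay below it. The log2 fold was -3.92 ± 0.76 (SE) in Olig1-Gnas against Ctrl (limma, adjusted p = 0.000897) and -2.60 ± 0.82 in hGFAP-Gnas against Ctrl (adjusted p = 0.0299). Without hGFAP-Gnas 4 the hGFAP-Gnas call of Gad2 was lost, with a fold of -2.52 and an adjusted p of 0.0509.

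The windows of the enzyme genes are Gad1 at chr2:70561879-70562178, with 60.0% G or C and the TATA word from base -141, and Gad2 at chr2:22622077-22622376, with 61.3% G or C and the core, as CGTCA, from base -33.
Gad1: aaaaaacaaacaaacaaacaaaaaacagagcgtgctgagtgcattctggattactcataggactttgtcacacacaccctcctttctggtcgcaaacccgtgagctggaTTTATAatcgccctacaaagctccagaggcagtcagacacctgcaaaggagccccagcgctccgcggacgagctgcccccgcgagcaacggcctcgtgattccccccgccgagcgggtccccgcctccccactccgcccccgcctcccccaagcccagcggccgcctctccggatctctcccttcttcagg
Gad2: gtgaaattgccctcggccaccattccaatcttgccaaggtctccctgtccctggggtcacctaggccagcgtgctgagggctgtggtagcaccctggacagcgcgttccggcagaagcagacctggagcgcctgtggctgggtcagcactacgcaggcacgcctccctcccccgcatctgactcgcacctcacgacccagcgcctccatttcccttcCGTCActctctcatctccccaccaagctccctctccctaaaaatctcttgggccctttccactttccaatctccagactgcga

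Slc32a1, which loads GABA and glycine into vesicles, lies on chromosome 2 at chr2:158436493-158441483 in mm9. In Olig1-Gnas its level was 0.0976 FPKM in the lowest library (Olig1-Gnas 4), 0.471 FPKM at the median and 14.5 FPKM in the highest (Olig1-Gnas 8). In hGFAP-Gnas it was 1.45 FPKM in the lowest library (hGFAP-Gnas 5), 8.51 FPKM at the median and 51.9 FPKM in the highest (hGFAP-Gnas 1). Ctrl had 75.0, 80.8 and 67.4 FPKM, above every knockout library. Within each knockout the 3 libraries with the most Slc32a1, Olig1-Gnas 6 to 8 and hGFAP-Gnas 1, 2 and 7, also held the most Gad1. The log2 fold was -4.65 ± 0.90 (SE) in Olig1-Gnas against Ctrl (limma, adjusted p = 0.00100) and -2.94 ± 0.92 in hGFAP-Gnas against Ctrl (adjusted p = 0.0289). Gm14205 is annotated antisense to 911 bases of Slc32a1, with the same limit on strand as for Gad1.

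In Olig1-Gnas against Ctrl, the 3 GABA genes kept their calls within the deeper class, with log2 folds of -3.52 for Gad1, -2.78 for Gad2 and -3.48 for Slc32a1 (limma, adjusted p = 0.0302, 0.0271 and 0.0241). Within the shallower class, with its lone Ctrl library, Gad1 had a fold of -6.67, while Gad2 and Slc32a1 did not pass the filter there. In hGFAP-Gnas against Ctrl the folds of these genes were -2.69, -2.05 and -2.49 within the deeper class (adjusted p = 0.279, 0.310 and 0.282) and -3.24, -3.21 and -3.32 within the shallower class. Leaving out any 1 of the 3 Ctrl libraries also ended the hGFAP-Gnas calls of the 3 genes, with folds of -2.54 to -3.01 and adjusted p of 0.0795 to 0.0925.

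Slc6a5, which takes up glycine into glycinergic endings, lies on chromosome 7 at chr7:57165668-57214863 in mm9. It was listed at 0 in Olig1-Gnas 4, and the other 7 Olig1-Gnas libraries had 0.0543 to 1.32 FPKM, highest in Olig1-Gnas 7. In hGFAP-Gnas it ranged from 0.0671 FPKM (hGFAP-Gnas 3) through a median of 1.17 FPKM to 4.51 FPKM (hGFAP-Gnas 1). Ctrl 1 and Ctrl 2 had 8.47 and 8.52 FPKM, and Ctrl 3 had 19.3 FPKM. Every knockout library was below every Ctrl library. The log2 fold was -2.55 ± 0.51 (SE) in hGFAP-Gnas against Ctrl (limma, adjusted p = 0.00847). In Olig1-Gnas against Ctrl it was -3.18 ± 0.33, a value with no p given, since the gene passed the filter through Ctrl.

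Within the deeper class, which leaves out Ctrl 3, the log2 fold of Slc6a5 was -2.48 in Olig1-Gnas against Ctrl and -1.80 in hGFAP-Gnas against Ctrl (limma, adjusted p = 0.259 for the second). Slc6a5 did not pass the filter within the shallower class in either comparison. Ctrl 3 was again the high Ctrl library, as it was for Slc17a6. The glycine receptor gene Glra1, known from brainstem and spinal cord and chosen here after its values were seen, had 2.66 FPKM in Olig1-Gnas 6, 5.04 FPKM in hGFAP-Gnas 1 and 16.3 FPKM in Ctrl 3, against at most 1.24 FPKM in the other libraries, and the part of such tissue in the Slc6a5 level was not tested. The first Slc6a5 window, at chr7:49910049-49910348 with 49.7% G or C, is shown because its core TGACG, from base -34, lies almost where that of Gad2 does.
Slc6a5: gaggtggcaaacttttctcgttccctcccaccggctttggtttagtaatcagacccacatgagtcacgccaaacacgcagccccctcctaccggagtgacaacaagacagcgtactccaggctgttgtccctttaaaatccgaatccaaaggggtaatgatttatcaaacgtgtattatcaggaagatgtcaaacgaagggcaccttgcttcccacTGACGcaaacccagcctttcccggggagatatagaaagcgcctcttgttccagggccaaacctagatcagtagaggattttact

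**Figure D4:**
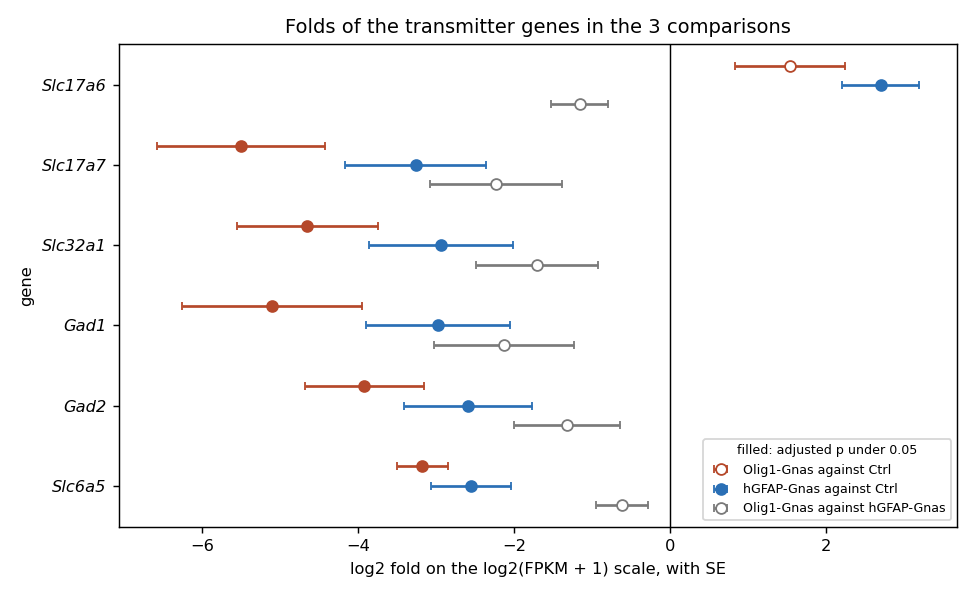
Points are log2 folds on the log2(FPKM + 1) scale with their SE for the 6 genes, from top to bottom within a gene for Olig1-Gnas against Ctrl, hGFAP-Gnas against Ctrl and Olig1-Gnas against hGFAP-Gnas, filled where the limma adjusted p is under 0.05. Slc17a6 lies right of 0 and the other 5 genes left of 0 in both comparisons with Ctrl, and the Olig1-Gnas fold of Slc17a6 (1.53) and every fold between the knockouts are unfilled.

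Set directly against each other, Olig1-Gnas had lower means than hGFAP-Gnas for all 6 genes, Slc17a6 included, but none of the differences was called. The log2 folds of Olig1-Gnas against hGFAP-Gnas were -1.16 ± 0.36 (SE) for Slc17a6, -2.24 ± 0.85 for Slc17a7, -1.71 ± 0.78 for Slc32a1, -2.13 ± 0.90 for Gad1, -1.32 ± 0.68 for Gad2 and -0.62 ± 0.33 for Slc6a5. Their limma adjusted p was 0.137 for Slc17a6 and 0.169 to 0.253 for the others. The groups overlapped for every gene. The 2 comparisons with Ctrl share the same 3 Ctrl libraries, so their folds are given side by side and not as independent results.

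Gad2 over Gad1 averaged -2.36 ± 0.55 in Olig1-Gnas, -2.51 ± 0.49 in hGFAP-Gnas (SD, n = 8 each) and -2.60 ± 0.15 in Ctrl (SD, n = 3) on the log2 scale, with exact permutation p of 0.509 and 0.958 against Ctrl. Slc32a1 over Gad1 averaged -1.67 ± 0.29 in Olig1-Gnas, -1.64 ± 0.63 in hGFAP-Gnas and -1.51 ± 0.08 in Ctrl (exact permutation p = 0.400 and 0.655). Gad1 over Slc17a7 averaged 0.30 ± 1.57 in Olig1-Gnas, 0.08 ± 0.28 in hGFAP-Gnas and -0.22 ± 0.27 in Ctrl (exact permutation p = 0.679 and 0.145). These tests, with groups of 8 and 3 libraries, found no difference from Ctrl. The smallest exact permutation p they allow, 0.0121, comes to 0.0909 after adjustment over 15 tests. They could thus hardly be passed and do not show that the ratios stayed alike. Gad2 was at most 0.352 FPKM in Olig1-Gnas 1 to 5, and with 1 FPKM added in place of 0.1 the difference in Gad2 over Gad1 was 1.18 for Olig1-Gnas against Ctrl (adjusted p = 0.273, exact permutation). The spread itself differed, since Gad1 over Slc17a7 as a plain ratio ran from 0.324 to 10.2 in Olig1-Gnas, from 0.778 to 1.37 in hGFAP-Gnas and from 0.733 to 1.06 in Ctrl.

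Slc6a5 over Slc32a1 averaged -2.03 ± 1.30 in Olig1-Gnas and -3.24 ± 0.50 in hGFAP-Gnas (SD, n = 8 each), a difference of 1.22 (exact permutation p = 0.0247, adjusted p = 0.124 over 15 tests), and -2.72 ± 0.80 in Ctrl. Both genes were under 1 FPKM in Olig1-Gnas 1 to 5, whose ratios (-1.86 to 0.11) lay above those of Olig1-Gnas 6 to 8 (-4.05 to -2.76). Such low values depend on the added 0.1 FPKM.

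In the plot of change from the Ctrl mean, Olig1-Gnas 1 to 5 had differences of -7.82 to -4.72 log2 units for Slc17a7, Slc32a1, Gad1 and Gad2, and hGFAP-Gnas 1 had -0.73 to 0.10. For Slc6a5 the same libraries had -3.61 to -3.38 and -1.15. Snap25, a synaptic gene of neurons in general, averaged 191 ± 169 FPKM in Olig1-Gnas, 492.9 ± 494.9 FPKM in hGFAP-Gnas (SD, n = 8 each) and 1654 ± 117 FPKM in Ctrl (SD, n = 3). Gabra6 averaged 17.9 ± 31.1 FPKM in Olig1-Gnas and 80.8 ± 93.7 FPKM in hGFAP-Gnas, and Calb1 averaged 16.8 ± 28.8 FPKM in Olig1-Gnas and 76.3 ± 82.2 FPKM in hGFAP-Gnas. The highest Gabra6 of the knockouts was in hGFAP-Gnas 1, 7 and 2 (260, 159 and 128 FPKM) and, within Olig1-Gnas, in libraries 7 and 8 (75.7 and 59.8 FPKM), the libraries with the most Slc17a7. Olig1-Gnas 6 differed from these, with 18.4 FPKM of Gad1 and 7.89 FPKM of Gad2 beside 1.72 FPKM of Slc17a7 and 0.894 FPKM of Gabra6. It also held 4.75 FPKM of Tph2 and 3.46 FPKM of Slc6a4, genes of serotonin neurons chosen after their values were seen, against at most 0.816 and 0.112 FPKM in the other 18 libraries. Its median absolute log2 ratio to the other Olig1-Gnas libraries was 0.353 to 0.420, against 0.0966 to 0.296 between the others, and the part of other tissue in its Gad1 and Gad2 was not tested.

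**Figure D5:**
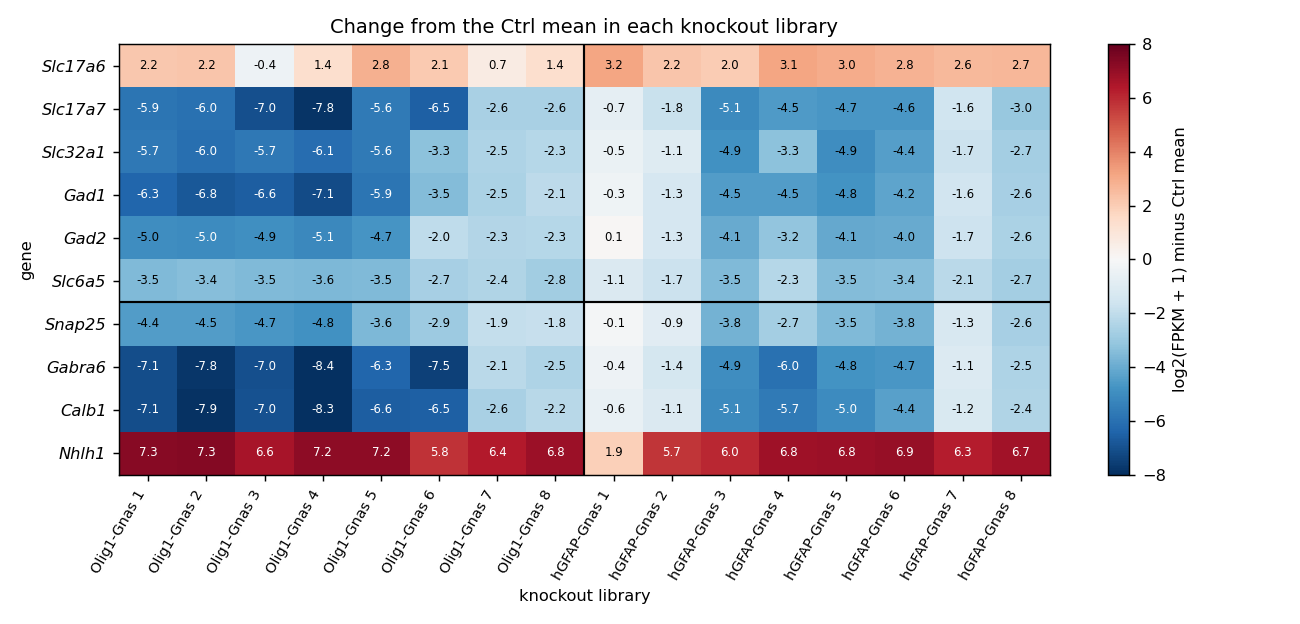
Each cell gives log2(FPKM + 1) of a gene in a knockout library minus the Ctrl mean of that gene, with blue below and red above Ctrl, Olig1-Gnas libraries left and hGFAP-Gnas libraries right of the vertical line, the 6 transmitter genes above the horizontal line and 4 comparison genes below it. Slc17a7, Slc32a1 and Gad1 are palest in Olig1-Gnas 7 and 8 and in hGFAP-Gnas 1, 2, 7 and 8, as are Snap25, Gabra6 and Calb1, while Slc17a6 is above 0 in every library except Olig1-Gnas 3 and Nhlh1 is lowest in hGFAP-Gnas 1.

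The proliferation gene Mki67 had a range of 78.7 to 264 FPKM in Olig1-Gnas, of 2.70 to 165 FPKM in hGFAP-Gnas and of 0.188 to 0.326 FPKM in Ctrl. The 2.70 FPKM were in hGFAP-Gnas 1, the library with the most Slc17a6 (28.3 FPKM) as well as the most Slc17a7, Gad1, Gad2, Slc32a1 and Slc6a5 of all knockouts. That library also held 9.34 FPKM of Lhx9, known from neurons of the deep nuclei and midbrain, against at most 1.21 FPKM elsewhere, a gene chosen after its values were seen. Without hGFAP-Gnas 1 the 6 members remained called, with log2 folds of 2.63 for Slc17a6 and -2.75 to -3.63 for the others (limma, adjusted p = 0.000392 to 0.00861). The call of Slc17a6, which again passed the filter through the knockout libraries, is not read as support.

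Marker lists of cerebellar neurons, from which the 6 genes were taken out, differed in direction. Over all tested genes 23.6% were called lower and 36.2% higher in Olig1-Gnas, and 12.8% and 26.1% in hGFAP-Gnas. Of 9 granule neuron genes 7 fell in Olig1-Gnas and 6 in hGFAP-Gnas, and the Olig1-Gnas sum was 104 to 618 FPKM, that of hGFAP-Gnas 199 to 1468 FPKM and that of Ctrl 1751 to 2343 FPKM. Of 9 Purkinje genes 9 fell in Olig1-Gnas and 8 in hGFAP-Gnas, with sums of 30.9 to 979, 140 to 2557 and 3403 to 5254 FPKM in Olig1-Gnas, hGFAP-Gnas and Ctrl. Of 7 genes of molecular layer interneurons 7 fell in Olig1-Gnas and 6 in hGFAP-Gnas, and of 5 Golgi cell genes 3 and 2 fell. The 5 deep nuclei genes had higher median sums in the knockouts, with 115 FPKM in Olig1-Gnas, 248.85 FPKM in hGFAP-Gnas and 56.9 FPKM in Ctrl, but did not move together. Of 2 tested in Olig1-Gnas, Spp1 rose (log2 fold 3.13) and Nefh fell (-4.05). Of 3 tested in hGFAP-Gnas, Spp1 rose (3.69), and Nefh (-2.44) and Meis2 (0.16) were not called. Tbr1, not tested, averaged 0.230, 0.220 and 0.237 FPKM in Olig1-Gnas, hGFAP-Gnas and Ctrl. Of 7 genes of granule progenitors and dividing cells all 7 rose in both knockouts, with an Olig1-Gnas sum of 678 to 1206 FPKM, an hGFAP-Gnas sum of 48.4 to 913 FPKM and a Ctrl sum of 12.6 to 16.4 FPKM. Mki67, Atoh1 and Nhlh1 were under 1 FPKM in Ctrl and passed the filter through the knockouts, so their rises are not read as support. The part of cell makeup in the folds of the 6 genes was not tested.

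Of 14 tested genes that supply and clear glutamate, 8 fell and 1 rose in Olig1-Gnas and 5 fell and 1 rose in hGFAP-Gnas, with median log2 folds of -0.72 and -0.29 beside 0.22 and 0.19 over all tested genes, of which 23.6% and 12.8% fell and 36.2% and 26.1% rose. Slc1a6, the glutamate uptake transporter of Purkinje cells, averaged 7.09 ± 11.2 FPKM in Olig1-Gnas, 23.2 ± 18.6 FPKM in hGFAP-Gnas (SD, n = 8 each) and 129 ± 23.9 FPKM in Ctrl (SD, n = 3). Got1, an aminotransferase that interconverts glutamate and aspartate, averaged 26.2 ± 15.8, 65.3 ± 55.1 and 194 ± 18.2 FPKM in Olig1-Gnas, hGFAP-Gnas and Ctrl. Gls2, a glutaminase that makes glutamate from glutamine, had log2 folds of -2.17 ± 0.39 in Olig1-Gnas (limma, adjusted p = 0.000468) and -1.70 ± 0.56 in hGFAP-Gnas (adjusted p = 0.0339). The gene that rose in both was Slc38a5, a glutamine transporter named after its values were seen, with 4.27 ± 1.26, 4.29 ± 1.68 and 1.29 ± 0.13 FPKM in Olig1-Gnas, hGFAP-Gnas and Ctrl.

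Of 11 genes of GABA transport and breakdown, 8 fell and 0 rose in Olig1-Gnas, and 6 fell and 1 rose in hGFAP-Gnas (median log2 folds -1.61 and -0.87). Over all tested genes 23.6% fell and 36.2% rose in Olig1-Gnas, and 12.8% fell and 26.1% rose in hGFAP-Gnas. Slc6a12, at most 0.993 FPKM in Olig1-Gnas, was tested there through Ctrl and had to be lower. In hGFAP-Gnas (median 0.515 FPKM) fewer than 3 libraries reached 1 FPKM, so it passed the filter through Ctrl there too. Neither fall is read as support. Abat, which breaks GABA down, had log2 folds of -2.02 ± 0.33 in Olig1-Gnas and -1.52 ± 0.49 in hGFAP-Gnas (limma, adjusted p = 0.000292 and 0.0331). Pdxk, which makes the cofactor of the GAD enzymes, had a fold of -2.33 ± 0.36 in Olig1-Gnas (adjusted p = 0.000158). The GABA uptake transporter of astrocytes, Slc6a11, went the other way in hGFAP-Gnas, with 71.6 ± 15.6 FPKM against 22.3 ± 18.8 FPKM in Ctrl (log2 fold 1.90 ± 0.35, adjusted p = 0.00735), and averaged 75.5 ± 55.5 FPKM in Olig1-Gnas, where it was not called.

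Of the glycine genes, 11 were tested in Olig1-Gnas, where 7 fell and 2 rose, and 13 in hGFAP-Gnas, where 5 fell and 2 rose (median log2 folds -1.34 and -0.74). The shares over all tested genes were 23.6% lower and 36.2% higher in Olig1-Gnas, and 12.8% and 26.1% in hGFAP-Gnas. Slc6a9, the glycine transporter of glia, averaged 8.64 ± 4.46 FPKM in Olig1-Gnas, 21.1 ± 11.4 FPKM in hGFAP-Gnas and 46.0 ± 5.55 FPKM in Ctrl. Slc6a20a, a proline and glycine transporter, had a log2 fold of -2.46 ± 0.46 in Olig1-Gnas (limma, adjusted p = 0.000658), and Slc7a10, an exchanger of D-serine and small amino acids including glycine, had -1.41 ± 0.49 in hGFAP-Gnas (adjusted p = 0.0405). The genes that rose were Shmt1 and Shmt2, which interconvert serine and glycine in one-carbon metabolism. Shmt1 averaged 38.7 ± 12.9 FPKM in Olig1-Gnas, 25.4 ± 12.4 FPKM in hGFAP-Gnas and 2.80 ± 0.55 FPKM in Ctrl, and Shmt2 averaged 69.7 ± 16.3, 60.6 ± 27.3 and 15.7 ± 1.17 FPKM in the same groups.

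Among transcription factors of glutamate neurons, 6 of 14 tested rose and 3 fell in each knockout (median log2 folds 0.31 in Olig1-Gnas and 0.56 in hGFAP-Gnas), counts near the shares over all genes in Olig1-Gnas (36.2% higher and 23.6% lower). In hGFAP-Gnas those shares were 26.1% higher and 12.8% lower. The largest folds were those of granule progenitor and young granule neuron factors. Nhlh1, a factor of newly born granule neurons, averaged 141 ± 46.5 FPKM in Olig1-Gnas, 95.7 ± 47.5 FPKM in hGFAP-Gnas and 0.192 ± 0.065 FPKM in Ctrl. Atoh1, the factor that specifies granule progenitors, averaged 92.2 ± 59.2, 59.5 ± 43.2 and 0.104 ± 0.082 FPKM in Olig1-Gnas, hGFAP-Gnas and Ctrl, and Barhl1 averaged 132 ± 24.1, 107 ± 69.5 and 4.08 ± 0.71 FPKM. Barhl1 was called in both comparisons (limma, adjusted p = 2.51e-09 in Olig1-Gnas and 0.00569 in hGFAP-Gnas). Nhlh1, Atoh1 and Lhx2, which also rose in both, were at most 0.262, 0.198 and 0.0972 FPKM in Ctrl. They passed the filter through the knockouts and had to be higher, so their rises are not read as support. Those that fell in both were Eomes, Etv1 and Neurod2, named after their values were seen, with log2 folds of -2.17, -2.70 and -2.97 in Olig1-Gnas and -2.47, -1.99 and -2.06 in hGFAP-Gnas. Eomes had a median of 0.634 FPKM and at most 1.25 FPKM in hGFAP-Gnas and passed the filter there through Ctrl. Its fall in hGFAP-Gnas, which the count includes, is therefore not read as support.

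Among transcription factors of GABA and glycine neurons, 5 of 10 tested rose and 3 fell in Olig1-Gnas, and 1 of 8 rose and 3 fell in hGFAP-Gnas (median log2 folds 0.31 and 0.29). Over all tested genes 36.2% rose and 23.6% fell in Olig1-Gnas, and 26.1% rose and 12.8% fell in hGFAP-Gnas. Dlx5, Dlx6 and Prdm13 stayed under 1 FPKM in Ctrl, and Lbx1 and Pax2 did so in Olig1-Gnas. Each passed the filter through the group where it was high, which set its direction, so the Olig1-Gnas counts are not read as support. Lhx5, a factor of early GABAergic cerebellar neurons, averaged 0.422 ± 0.651 FPKM in Olig1-Gnas, 1.69 ± 1.68 FPKM in hGFAP-Gnas and 9.59 ± 1.80 FPKM in Ctrl. Lbx1, a factor of spinal GABAergic neurons, averaged 0.244 ± 0.400, 1.05 ± 1.17 and 4.92 ± 0.41 FPKM in Olig1-Gnas, hGFAP-Gnas and Ctrl. Olig2, which is better known from the oligodendrocyte lineage, rose in both, with means of 40.9, 30.3 and 6.97 FPKM in Olig1-Gnas, hGFAP-Gnas and Ctrl (log2 folds 2.33 ± 0.27 and 1.83 ± 0.41). Dlx6, a forebrain factor that promotes Gad1 and Gad2 there, averaged 19.8 ± 14.9 FPKM in Olig1-Gnas and 0.732 ± 0.983 FPKM in hGFAP-Gnas and was listed at 0 in the 3 Ctrl libraries. It was the member of the 6 lists that was called between the knockouts (log2 fold 3.46 ± 0.39, limma adjusted p = 0.000605). Dlx6 passed the filter there through Olig1-Gnas, where its lowest value was 5.17 FPKM, so that call is not read as support.

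Genes of other transmitters gave few values, as 8 of 14 did not pass the filter, Tph2 and Slc6a4 of Olig1-Gnas 6 among them. Slc5a7, the choline transporter, averaged 5.07 ± 3.64 FPKM in Olig1-Gnas, 1.90 ± 1.02 FPKM in hGFAP-Gnas and 0.173 ± 0.205 FPKM in Ctrl and rose in both. The noradrenaline transporter Slc6a2 also rose in both, with log2 folds of 2.05 ± 0.54 in Olig1-Gnas and 2.29 ± 0.69 in hGFAP-Gnas. In Ctrl, Slc5a7 and Slc6a2 were at most 0.41 and 0.29 FPKM, so they passed the filter through the knockouts. They had to be higher there, and their calls are not read as support. Hdc, the enzyme of histamine synthesis, fell in Olig1-Gnas (-1.48 ± 0.30, limma adjusted p = 0.00124).

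The genes whose change from the Ctrl mean was most like that of each member were ranked over the 16 knockout libraries and 14015 genes, by the mean absolute difference on the log2(FPKM + 1) scale. For Slc17a6 they were Ppp1r14c, Cbln4 and Mia1, with differences of 0.56, 0.64 and 0.67. Ppp1r14c, an inhibitor of protein phosphatase, averaged 27.5 ± 13.6 FPKM in Olig1-Gnas, 34.5 ± 18.4 FPKM in hGFAP-Gnas and 4.57 ± 0.45 FPKM in Ctrl, and Cbln4, a secreted synaptic protein gene, averaged 4.46 ± 3.93, 4.94 ± 3.07 and 0.4998 ± 0.7153 FPKM. Near Slc17a7 were Rgs8 and Prkcc, both known from Purkinje cells (0.41 and 0.48). Near Gad1 were the chloride transporter gene Slc12a5 and the neuronal enolase gene Eno2 (0.30 each), and for Slc32a1 they were Elmod1, Slc12a5 and C1qtnf4 (0.21, 0.31 and 0.34). For Gad2 they were Spock3, Cds1 and Nrip3 (0.25, 0.29 and 0.30), and for Slc6a5 they were Paqr9, Napb and Gchfr (0.34, 0.37 and 0.38).

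Among the members themselves, Slc32a1 and Gad1 were nearest to each other by this measure (0.42), Slc17a7 lay 0.55 from Gad1 and 0.65 from Slc32a1, and Gad2 lay 0.57 from Slc32a1. Slc6a5 was 0.84 from Gad2 and 1.66 from Slc17a7. Slc17a6 was the farthest, 4.982 to 6.499 from the other 5. A difference measured over these libraries describes them alone, since the 16 share the same 3 Ctrl libraries as baseline. On this scale a fall is bounded by the Ctrl level of the gene, as for Slc6a5 at -3.61 in Olig1-Gnas 4, where it is listed at 0. These distances, to members and to other genes, therefore depend on the Ctrl levels too.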

How the data were processed

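Total RNA of cerebellum had been sequenced in 19 libraries. Per the submitters' processing notes, TopHat and Cufflinks with assembly mm9 were used to make the deposited FPKM values. Versions and annotation are not given in the sources used here. For each knockout the authors deposited 1 table, with the Ctrl libraries in both, and each comparison with Ctrl used its own table. Ctrl 1 differed between the tables in 5106 genes and Ctrl 2 in 0.

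A gene was tested if 3 or more libraries of a comparison reached 1 FPKM, and log2(FPKM + 1) was fitted with limma 3.58.1 in R 4.3.3 (trend and robust moderation, Benjamini-Hochberg adjustment over all tested genes, called under 0.05), a test also run on simulated data with planted changes. Ratios were tested by exact permutation with scipy 1.17.1. Samples were grouped by the labels, each from a separate mouse. Relative depth came from steps among values under 0.5 FPKM, with 0.6 dividing the classes. FPKM summed to 603067 to 689165 in Olig1-Gnas, 505739 to 659634 in hGFAP-Gnas and 508329 to 525832 in Ctrl. An exact 0 can be a failed estimate.

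The members and lists were chosen with earlier results of these data known. Named were the members, Gnas, Gabra6, Calb1, Mki67, Snap25, up to 3 called genes with the largest folds of each list and comparison, and the 3 genes most like each member; some genes under this rule are not reported here. Alternatives changed the pseudocount, filter, scaling, moderation, design, depth class, Y-linked signal, zeros and libraries. The mm9 genome and protein sequences were not used here.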

Additional observations from a re-analysis of the deposited data

Results flagged for a closer look

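Gad2 in hGFAP-Gnas held 1 library far from the others. hGFAP-Gnas 1 had 37.3 FPKM, against 13.1 FPKM in the next library, a gap of 0.667 of the group's range. The same library had the lowest Mki67 of the knockouts (2.70 FPKM), and the part of its cell makeup was not tested.

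The log2 ratio of Slc6a5 over Slc32a1 in hGFAP-Gnas also had a distant library, hGFAP-Gnas 4, at -2.09, against -3.003 in the next library, a gap of 0.584 of the range. This library held the highest sum of brainstem genes (19.5 FPKM). In all, 22 groups of values were searched in this way, and chance alone picks out about 1 in 20.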

How the results depend on the processing

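The calls of Slc17a7, Slc32a1, Gad1 and Gad2 in Olig1-Gnas against Ctrl held under each alternative that gave a value. Here the shallower fit with its lone Ctrl library is left aside, and the limma adjusted p was at most 0.0302. Slc32a1 and Gad2 reached 1 FPKM in 3 Olig1-Gnas libraries, 6 to 8. With 1 of these left out they passed the filter through Ctrl, so those settings are not read as support. The directions of all 6 genes in hGFAP-Gnas held under each alternative run. The hGFAP-Gnas calls were less stable. The number of genes called there among all tested, 5570, fell to 0 with the replicate block, 6 within the deeper libraries, 2277 within the shallower ones and 34 without the libraries with brainstem genes, and ranged from 818 (without Ctrl 2) to 8164 (without hGFAP-Gnas 1) when 1 library was left out. Of the 6 transmitter genes, 0, 0, 1 and 1 were called under the first 4 of these settings, and 2 to 6 when 1 library was left out. The replicate block took numbers that do not pair the samples: correlations of same-numbered libraries exceeded 0.1 in 0 of 3, 1 of 3 and 3 of 8 pairs for Olig1-Gnas with Ctrl, hGFAP-Gnas with Ctrl and Olig1-Gnas with hGFAP-Gnas, and each library correlated best with its own number in 1, 2 and 0 of those. In Olig1-Gnas against Ctrl, 5141 genes and 2 members were called within the shallower libraries, a fit that takes its lone Ctrl library to vary as much as the knockouts, where Gad2, Slc32a1 and Slc6a5 could not be tested, and Slc17a6 reversed to -0.43. Slc17a6 was called there with all 3 groups in 1 fit (adjusted p = 0.0287). Between the knockouts 59 genes were called, and 35 with a filter of 5 FPKM, 178 with all 3 groups in 1 fit, 25 with the replicate block, 166 with depth class as a term, 3 within the deeper libraries, 3 with Y-linked signal as a term, 16 without the libraries with brainstem genes and 11 (without hGFAP-Gnas 8) to 104 (without hGFAP-Gnas 3) with 1 library left out. With a pseudocount of 1, Gad2 over Gad1 differed by 1.18 in Olig1-Gnas against Ctrl and 0.81 between the knockouts, Slc32a1 over Gad1 reversed to 0.45 in Olig1-Gnas and 0.036 in hGFAP-Gnas against Ctrl and to 0.42 between the knockouts, and Slc6a5 over Slc32a1 reversed to 0.39 in hGFAP-Gnas against Ctrl; Slc32a1 over Gad1 between the knockouts was 0.26 without the brainstem libraries. Leaving out 1 library gave -0.060 to 0.175 for Gad2 over Gad1 in hGFAP-Gnas against Ctrl, and between the knockouts -0.0063 to 0.30 for the same ratio, -0.13 to 0.16 for Slc32a1 over Gad1 and -0.22 to 0.49 for Gad1 over Slc17a7. None of these ratios passed a test under any setting. Against Ctrl the smallest exact permutation p possible with all libraries, 0.0121, came to 0.0909 after adjustment over 15 tests. Those tests could thus hardly be passed. Under quantile normalization the all-gene median was -0.01 in place of 0.19 for hGFAP-Gnas against Ctrl, and it moved the share of calls that were higher from 67.1 to 49.0%; between the knockouts that share moved from 35.6 to 53.4%. For Olig1-Gnas against Ctrl the median was 0.06 in place of 0.22. The causes of these changes were not tested. The depth in reads is unknown, so values under about 0.1 FPKM in the shallower libraries rest on few fragments.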
